A study of Mus musculus with 15 samples.

Results

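The genes described here are 45 genes of DNA replication, a fixed list that runs from the proteins that mark and license replication origins, through those that fire them, to the polymerases, the sliding clamp, the supply of nucleotides and the copying of chromatin. They were listed by name from the 34554 genes and added sequences counted in RNA sequencing of mouse pancreatic ductal organoids. The list was chosen with earlier results of these data known. All 45 were among the 16462 features that passed the expression filter, and the lowest count of any of them in any library was 374, for Gins3. Ductal organoids are hollow epithelial cultures embedded in Matrigel. The 3 inducible lines, A217, A220 and A225, carry every allele needed to make the carbohydrate antigen CA19-9 when doxycycline is given. The 2 negative lines, A218 and A223, lack at least 1 required allele, and the labels do not say which. Doxycycline (1 µg/ml) was given for 0, 4 or 24 h to inducible and negative lines alike, and with a library for every line and time there were 15 libraries, 3 inducible and 2 negative at each time. The medium of all cultures held epidermal growth factor, FGF-10, gastrin, Noggin, R-spondin 1, nicotinamide, N-acetylcysteine, the B27 supplement and A 83-01, an inhibitor of TGF-β receptors, and it was renewed 24 h before a common harvest. The labels do not state how many animals the lines came from.

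A cell copies its genome only once per division because the process is split into 2 steps. In G1, the origin recognition complex, with CDC6 and CDT1, loads the MCM2-7 helicase onto origins, a step called licensing. At the start of S phase the kinases CDC7 and CDK, with the factors TICRR, MCM10, CDC45 and the GINS complex, turn the loaded helicase into a moving fork. The genes of both steps are known as targets of E2F transcription factors, which are freed when cyclin E and CDK2 inactivate the retinoblastoma protein, so their transcripts are commonly read as a sign of how many cells are cycling. Normal duct cells divide rarely in the animal, while organoid medium keeps them dividing.

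Library totals ranged from 47915632 to 59411540 estimated counts. Levels in CPM are counts relative to the library total after TMM scaling, in units of 1000000. The induced EGFP reporter stood at 259 to 385 CPM in the 6 inducible libraries given doxycycline. It stood at 0.341 to 0.738 in the inducible libraries at 0 h, and at no more than 0.345 in the negative lines. None of the 11 duct markers listed was at 0, and 10 averaged above 1 TPM, the length-corrected share of transcripts in the same units. Krt18, a duct keratin, averaged 4492 TPM. Of the markers of other cells, the acinar genes Cpa1, Ptf1a and Amy2b, the islet hormones Ins1, Ins2, Gcg and Ppy, the macrophage gene Adgre1 and the endothelial gene Emcn were at 0 in every library. These were 3 of 10 acinar, 4 of 8 islet, 1 of 7 immune and 1 of 5 endothelial markers, and 0 of 8 fibroblast markers. The rest were above 0 in at least 1 library, with at most 1 marker per list averaging above 1 TPM. The summed acinar, fibroblast, immune and endothelial lists each stayed at or below 5.04 TPM, and the islet list, led by Pdx1, lay between 12.5 and 20.8 TPM.

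Promoters were looked up for the 45 genes in the RefSeq table for GRCm38.p6, which gives 250 bases before and 50 after a start, and 37 genes had an entry. The core of the E2F site was searched as TTTCCCGC, TTTCGCGC, TTTGCCGC and TTTGGCGC on both strands. It was found in 16 of the 37 genes (43.2%), or in 37.2% of their 43 promoters, against 2.26% of all 32851 promoters in the table. The CCAAT box, searched as CCAAT on both strands, was in 53.5% of their promoters and 37.4% of all promoters. The 160 bases just before the start are printed, 5′ to 3′ on the strand of the gene, for 4 genes with the E2F letters and for Cdc7, the gene with the lowest change in the set, in whose window these letters do not occur. Capitals mark the E2F letters, and matches that overlap run together. Mcm6 (chr1:128359706-128359865, minus strand) holds 3 matches, whose first bases lie at -110, -106 and -47 from the start. Mcm5 (chr8:75109349-75109508, plus strand) holds 2 that overlap, Cdc6 (chr11:98907991-98908150, plus strand) holds 1, and Dtl (chr1:191575545-191575704, minus strand) holds 1 that ends just before the start. The Cdc7 window is chr5:106964162-106964321, plus strand. None of the 5 windows overlaps an exon of these genes in GENCODE M21, although the Cdc6 window lies inside the annotated span of that gene.
Mcm6: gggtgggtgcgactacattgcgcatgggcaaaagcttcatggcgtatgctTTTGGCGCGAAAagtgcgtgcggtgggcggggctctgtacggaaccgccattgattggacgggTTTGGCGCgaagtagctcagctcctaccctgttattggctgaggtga
Mcm5: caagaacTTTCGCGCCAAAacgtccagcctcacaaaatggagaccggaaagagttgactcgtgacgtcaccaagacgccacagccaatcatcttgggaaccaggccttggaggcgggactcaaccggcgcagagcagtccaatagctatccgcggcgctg
Cdc6: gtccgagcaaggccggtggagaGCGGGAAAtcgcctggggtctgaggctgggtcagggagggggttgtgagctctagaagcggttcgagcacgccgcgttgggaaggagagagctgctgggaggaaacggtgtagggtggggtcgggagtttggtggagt
Dtl: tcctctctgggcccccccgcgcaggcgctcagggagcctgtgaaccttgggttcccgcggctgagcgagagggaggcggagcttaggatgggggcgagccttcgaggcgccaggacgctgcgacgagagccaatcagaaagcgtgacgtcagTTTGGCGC
Cdc7: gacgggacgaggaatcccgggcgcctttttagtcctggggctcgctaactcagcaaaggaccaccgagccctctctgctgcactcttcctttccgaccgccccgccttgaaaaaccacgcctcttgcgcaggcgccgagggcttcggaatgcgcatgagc
A match is a run of letters and no measure of binding. The change at 24 h, described next, had a median of -0.33 on the log2 scale over the 16 genes with the letters and of -0.36 over the 21 without them.

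At 24 h of doxycycline the replication genes were lower than at 0 h in both genotypes. Averaged over the genotypes, edgeR's quasi-likelihood test called 32 of the 45 genes lower and none higher at an adjusted p below 0.05, against 7.83% of all features called lower. With the line as a replicate block, which compares each line with itself, 43 of 45 were called lower, against 15.4% of all features. The median change of the 45 genes was -0.30 on the log2 scale, with a range from -0.69 for Cdc7 to -0.03 for Gins4, while the median of all tested features was 0.00. Each of the 45 estimates lay below 0, and 2726 of the 16462 features had a lower value than the median of the 45. In bulk RNA, fewer cells in S phase and less of each transcript per cell cannot be told apart. The summed level of the 45 genes was 3373 to 3688 TPM at 0 h and 2625 to 3287 TPM at 24 h, so the total of the 24 h libraries lay below that of every 0 h library.

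**Figure D1:**
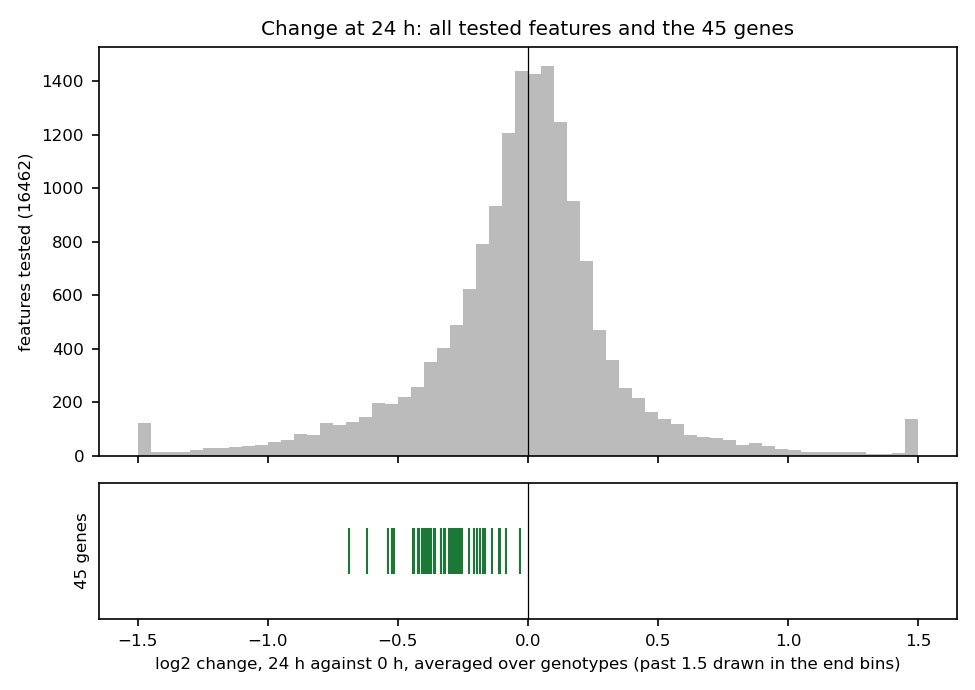
Histogram of the log2 change from 0 h to 24 h, averaged over genotypes, for all 16462 tested features (top), and the same value for each of the 45 replication genes as a tick (bottom). The ticks run from -0.69 to -0.03, all left of 0, around which the histogram is centred.

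Within single lines the direction was nearly uniform. Of the 45 genes, 43 were lower at 24 h than at 0 h in all 5 lines, against 18.1% of all features, and Gins2 and Gins4 were lower in 4 of the 5. In 13 genes every 24 h library lay below every 0 h library, against 5.28% of all features: Cdc6, Cdt1, Orc1, Cdc7, Gins3, Ticrr, Pola2, Rfc3, Rfc4, Fen1, Rrm2, Uhrf1 and Chaf1a. In 24 of the other genes the 24 h library of line A217 was the only one that reached into the 0 h range. That library was the highest of the 5 at 24 h in 41 of the 45 genes, against 22.3% of all features. At 0 h, too, A217 had the highest summed level of the 45 genes, at 3688 TPM. The median change at 24 h was -0.15 in A217, -0.39 in A220 and -0.35 in A225 among the inducible lines, and -0.36 in A218 and -0.32 in A223 among the negative lines. In the mitosis genes and the second list, both described below, A217 also had the smallest fall at 24 h. Its medians were -0.11 and -0.13, against -0.33 to -0.20 and -0.28 to -0.21 in the other lines. The map of changes by line shows A217 as the palest column at 24 h.

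**Figure D2:**
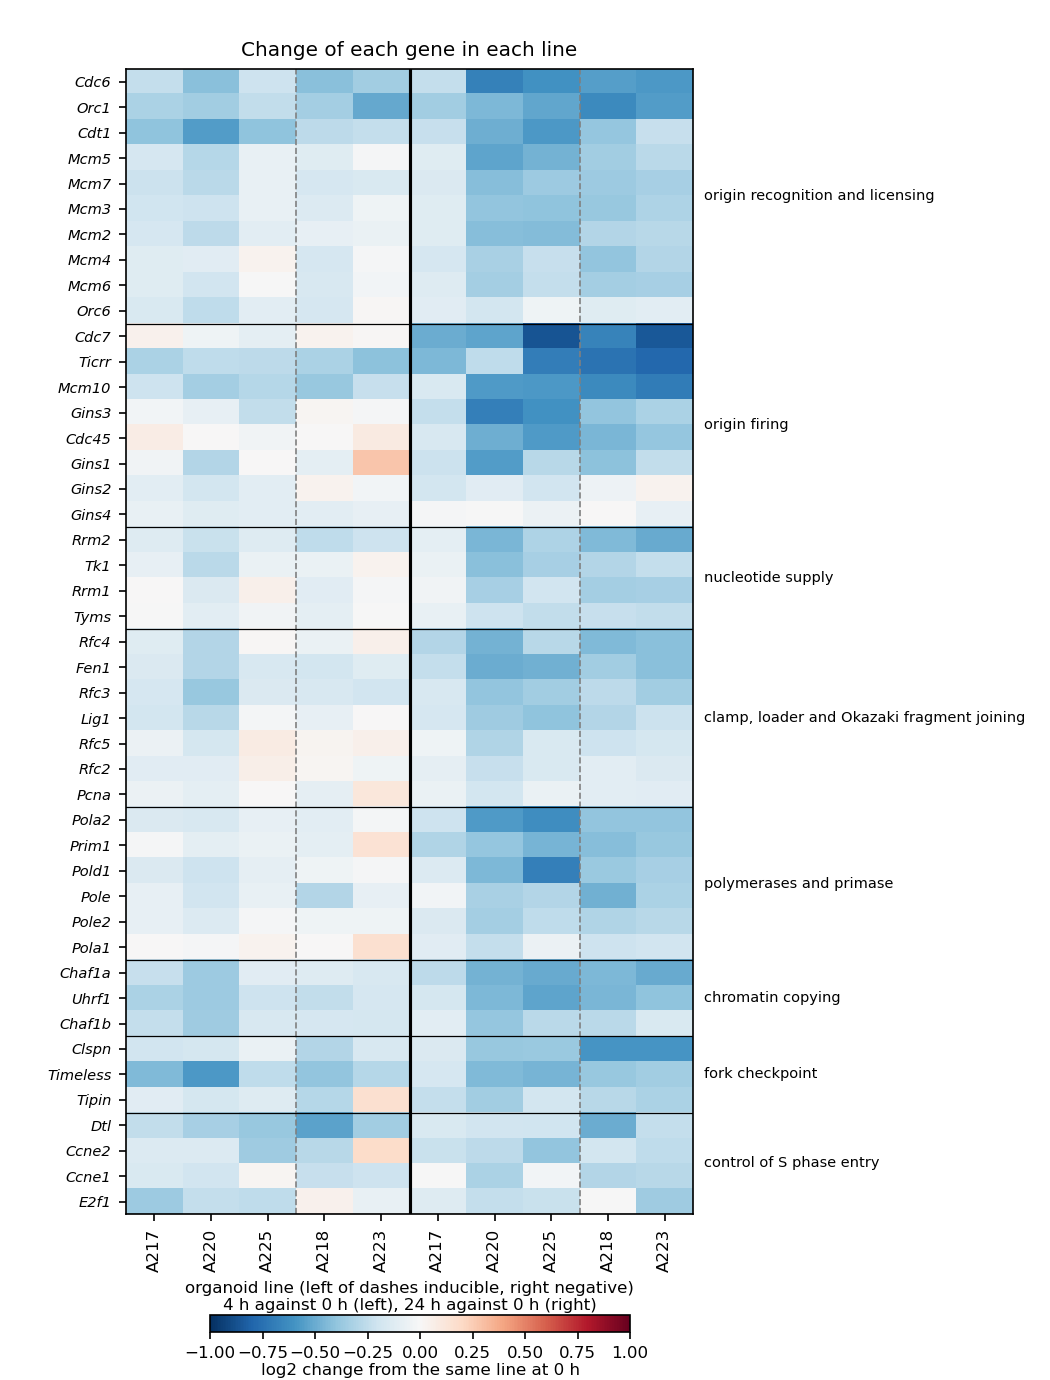
Log2 change of each of the 45 genes (rows, grouped by role) in each organoid line (columns) at 4 h and at 24 h, both from the same line at 0 h; blue is lower, red is higher. At 24 h nearly all cells are blue, and the A217 column, with a median of -0.15, is paler than the others, whose medians lie between -0.39 and -0.32.

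In the values by library that follow, the lines stand in the order A217, A220, A225 (inducible), A218 and A223 (negative), in CPM scaled by TMM, and each change is the log2 change averaged over the genotypes with its standard error (SE) and the edgeR adjusted p. The genes that mark and license origins were called lower at 24 h in 9 of 10 cases, and in 10 of 10 with the replicate block, with a median change of -0.32. Orc1 (chr4:108579423-108614833), the subunit of the origin recognition complex whose protein is made anew each cycle, lay below its 0 h range at both later times. Orc1 measured 18.8, 16.5, 15.5, 18.6 and 18.3 CPM at 0 h, 15.1, 12.9, 13.1, 14.7 and 12.8 at 4 h, and 14.8, 12.1, 10.8, 11.9 and 12.4 at 24 h. All 5 libraries at 4 h and all 5 at 24 h lay below the lowest at 0 h, and Orc1 fell by 0.51 (SE 0.09, adjusted p = 0.00276) at 24 h. Orc6, the smallest subunit, was the 1 licensing gene not called, with a change of -0.11 (SE 0.08, adjusted p = 0.394); its replicate block value was -0.11 (adjusted p = 0.026).

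Cdc6 (chr11:98907801-98923940), the ATPase that joins the origin recognition complex to receive the helicase, showed the same kind of separation. Cdc6 measured 58.3, 53.2, 52.5, 54.8 and 53.4 CPM at 0 h, 49.3, 39.9, 45.5, 41.05 and 42.04 at 4 h, and 49.5, 33.4, 34.4, 37.5 and 35.8 at 24 h. It fell by 0.52 (SE 0.10, adjusted p = 0.00422), or by 30.4%. Cdt1, which carries the helicase to the origin, was lower in every library with doxycycline than in any without. Cdt1 measured 60.6, 57.4, 51.6, 55.4 and 53.5 CPM at 0 h, 45.9, 39.03, 39.03, 46.2 and 45.3 at 4 h, and 51.5, 40.98, 34.6, 42.4 and 45.6 at 24 h. Cdt1 fell by 0.36 (SE 0.09, adjusted p = 0.0197) at 24 h, and its levels at 24 h were below those at 4 h in only 2 of the 5 lines, A225 and A218.

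The 6 subunits of the MCM2-7 helicase moved by similar amounts, between -0.33 and -0.28. Mcm2 measured 187, 173, 169.8, 179 and 171 CPM at 0 h, 167, 144, 158, 169 and 163 at 4 h, and 172, 129, 126, 146 and 141 at 24 h. Mcm3 measured 221, 201, 196, 216 and 203 CPM at 0 h, 193, 174, 187, 196 and 197 at 4 h, and 204, 153, 148, 166 and 164 at 24 h. In both genes A217 at 24 h was the only 24 h library within the 0 h range. Mcm2 fell by 0.30 (SE 0.08, adjusted p = 0.0206) and Mcm3 fell by 0.32 (SE 0.08, adjusted p = 0.015). Mcm4 measured 252, 221, 232, 240.1 and 227 CPM at 0 h, 231, 205, 238, 213 and 225.1 at 4 h, and 224, 176, 198, 183 and 185 at 24 h. Mcm5 measured 221, 212, 188, 216.9 and 198 CPM at 0 h, 196, 174, 178, 199 and 196 at 4 h, and 204, 148, 135, 170.0 and 164 at 24 h. The 24 h values of lines other than A217 again lay below all 0 h values. Mcm4 fell by 0.29 (SE 0.07, adjusted p = 0.0108), and Mcm5 fell by 0.33 (SE 0.09, adjusted p = 0.0287). Mcm6 measured 393, 374, 378, 364 and 351 CPM at 0 h, 361, 327, 377, 327 and 343 at 4 h, and 359.6, 295, 321, 287 and 279 at 24 h. Mcm7 measured 307, 279, 269, 290.4 and 286 CPM at 0 h, 265, 231, 256, 258 and 257 at 4 h, and 278, 207, 209, 226 and 227 at 24 h. Mcm6 fell by 0.28 (SE 0.06, adjusted p = 0.00475) and was the most precisely measured of the 6. Mcm7 fell by 0.32 (SE 0.08, adjusted p = 0.0134); its 4 h libraries all lay below its lowest 0 h library, which was not so for Mcm3, Mcm4, Mcm5 or Mcm6.

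The genes that fire origins had the widest spread. Their median change at 24 h was -0.42, with 5 of 8 called lower and 6 of 8 with the replicate block. Cdc7 (chr5:106964322-106984432) encodes the kinase that, with its partner DBF4, phosphorylates the loaded helicase. Cdc7 measured 24.8, 21.3, 24.3, 22.8 and 23.1 CPM at 0 h, 25.6, 20.7, 22.7, 23.4 and 23.2 at 4 h, and 17.6, 14.8, 13.3, 14.4 and 12.8 at 24 h. At 4 h the values spanned the 0 h range, and at 24 h every library was below every earlier one. Cdc7 fell by 0.69 (SE 0.09, adjusted p = 0.000307), or by 38.0%, the lowest change of the 45. Ticrr (chr7:79660196-79698148), also known as treslin, links CDK activity to the loading of CDC45. Ticrr measured 24.4, 18.7, 22.7, 22.6 and 26.7 CPM at 0 h, 19.5, 15.7, 18.9, 18.1 and 20.1 at 4 h, and 17.8, 15.7, 14.1, 13.5 and 15.5 at 24 h. It was lower at 4 h in all 5 lines and lower again at 24 h in 4 of them, with A220 level from 4 h on. Ticrr fell by 0.62 (SE 0.10, adjusted p = 0.0016). Mcm10 (chr2:4989714-5012791), needed for the assembled helicase to start unwinding, had its 24 h values below the 0 h range in the 4 lines other than A217. Mcm10 measured 76.6, 67.5, 71.8, 74.1 and 72.1 CPM at 0 h, 66.2, 53.4, 59.05, 56.9 and 61.6 at 4 h, and 69.02, 45.5, 48.1, 47.7 and 44.4 at 24 h. Mcm10 fell by 0.54 (SE 0.10, adjusted p = 0.00419).

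CDC45 and the 4 GINS proteins ride with the helicase at the fork. Cdc45 measured 47.7, 43.9, 45.2, 46.4 and 41.8 CPM at 0 h, 50.1, 43.9, 44.1, 46.5 and 44.5 at 4 h, and 42.6, 31.2, 30.5, 33.8 and 31.9 at 24 h. Cdc45 was not below its 0 h value at 4 h in 4 of 5 lines, and it fell by 0.41 (SE 0.09, adjusted p = 0.00799) at 24 h. Gins1 measured 21.7, 18.7, 19.9, 19.99 and 17.8 CPM at 0 h, 21.1, 15.2, 19.9, 18.6 and 21.6 at 4 h, and 18.7, 12.7, 16.4, 15.04 and 14.99 at 24 h. Gins3 measured 14.2, 12.8, 14.6, 12.9 and 12.9 CPM at 0 h, 13.9, 12.1, 12.3, 13.1 and 12.8 at 4 h, and 12.02, 8.02, 9.59, 9.79 and 10.3 at 24 h. Gins3 fell by 0.42 (SE 0.10, adjusted p = 0.0104) with no overlap between the 0 h and 24 h libraries. Gins1 did not pass, at -0.33 (SE 0.11, adjusted p = 0.0573), and with the replicate block it was -0.34 (adjusted p = 0.000906). Gins2 measured 44.6, 42.2, 43.2, 42.3 and 44.04 CPM at 0 h, 41.4, 37.1, 40.1, 43.4 and 43.2 at 4 h, and 39.2, 38.9, 37.8, 40.9 and 45.2 at 24 h. Gins4 measured 48.01, 43.5, 50.5, 45.6 and 44.3 CPM at 0 h, 45.5, 40.04, 46.9, 42.5 and 41.7 at 4 h, and 47.6, 43.4, 48.4, 45.7 and 41.9 at 24 h. These subunits were the 2 genes of the 45 that neither fit called at 24 h. Gins2 was at -0.08 (SE 0.05, adjusted p = 0.231) and, with the replicate block, -0.08 (adjusted p = 0.0929). Gins4 was at -0.03 (SE 0.06, adjusted p = 0.761) and, with the block, -0.03 (adjusted p = 0.492); its 24 h libraries overlapped the 0 h range in A217, A225 and A218, and every line was higher at 24 h than at 4 h. The 4 GINS proteins act as 1 complex, and the estimates of their transcripts ran from -0.42 to -0.03.

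**Figure D3:**
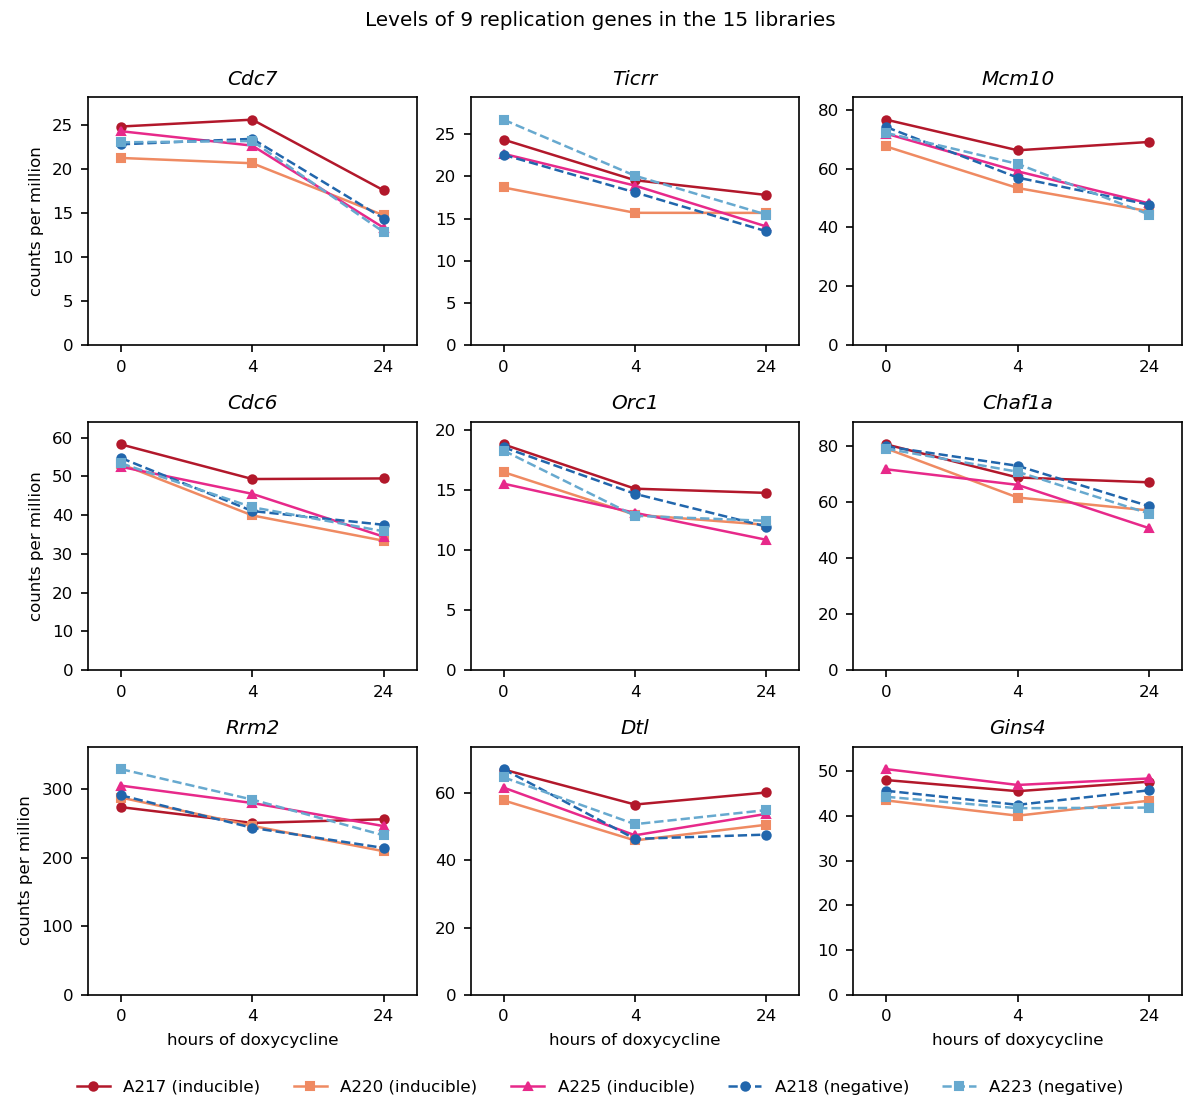
TMM-scaled CPM of 9 replication genes at 0, 4 and 24 h of doxycycline (categories on the x axis) in the 3 inducible lines (solid) and 2 negative lines (dashed); each point is 1 library. Cdc7 is flat until 4 h and lower at 24 h, Dtl is lowest at 4 h, and Gins4 is nearly level.

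Of the 6 genes for polymerases and primase, 5 were called lower and all 6 with the replicate block, with a median of -0.34. Pola1 and Pola2 are the catalytic and the B subunit of polymerase α, and Prim1 is the primase that lays the RNA primer. Pola2 measured 51.5, 45.7, 46.5, 46.7 and 44.8 CPM at 0 h, 46.7, 40.9, 43.98, 43.5 and 44.1 at 4 h, and 44.6, 30.9, 30.2, 35.5 and 34.1 at 24 h. Prim1 measured 86.5, 68.9, 76.99, 73.5 and 72.03 CPM at 0 h, 85.9, 64.3, 73.6, 68.5 and 79.8 at 4 h, and 70.3, 52.6, 55.9, 54.6 and 55.4 at 24 h. Pola2 fell by 0.42 (SE 0.10, adjusted p = 0.0112) without overlap, and Prim1 fell by 0.39 (SE 0.10, adjusted p = 0.0159), with A217 at 24 h above the lowest 0 h library. Pola1 measured 116, 97.5, 109, 102 and 99.2 CPM at 0 h, 116, 96.6, 112, 103 and 111 at 4 h, and 107, 82.7, 105, 88.6 and 87.1 at 24 h. Pola1 was the gene not called, at -0.16 (SE 0.08, adjusted p = 0.158), and with the replicate block it was -0.17 (adjusted p = 0.00181). The catalytic subunits of the polymerases that copy the lagging and leading strands, Pold1 and Pole, and the second subunit of polymerase ε, Pole2, made up the rest. Pold1 measured 58.4, 54.4, 52.8, 56.6 and 52.5 CPM at 0 h, 52.8, 47.2, 49.5, 55.05 and 51.95 at 4 h, and 53.01, 39.95, 32.8, 43.9 and 41.7 at 24 h. Pold1 fell by 0.37 (SE 0.10, adjusted p = 0.0231), and A225 had its lowest value. Pole measured 90.9, 84.3, 88.4, 93.2 and 84.1 CPM at 0 h, 85.7, 73.95, 84.2, 76.1 and 79.5 at 4 h, and 89.04, 67.2, 72.1, 66.6 and 67.7 at 24 h. Pole2 measured 42.6, 37.2, 39.9, 38.2 and 39.5 CPM at 0 h, 40.2, 33.9, 39.6, 37.1 and 38.3 at 4 h, and 38.6, 29.3, 33.5, 31.1 and 32.5 at 24 h. Pole fell by 0.30 (SE 0.07, adjusted p = 0.0122) and Pole2 fell by 0.26 (SE 0.08, adjusted p = 0.0303); in both, A217 at 24 h was the library within the 0 h range.

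The clamp, its loader and the enzymes that join Okazaki fragments gave 4 calls among 7 genes, and 7 with the replicate block (median -0.28). Fen1 removes the flap at the end of each Okazaki fragment and Lig1 seals the nick. Fen1 measured 108, 101, 91.5, 101 and 95.9 CPM at 0 h, 97.3, 82.4, 82.02, 89.1 and 88.2 at 4 h, and 91.3, 71.6, 65.4, 79.5 and 71.7 at 24 h. Lig1 measured 131, 121, 115, 123 and 121 CPM at 0 h, 115, 100, 113, 117 and 121 at 4 h, and 116, 94.3, 87.03, 100.4 and 104 at 24 h. Fen1 fell by 0.39 (SE 0.09, adjusted p = 0.00953) and did not overlap, while Lig1 fell by 0.28 (SE 0.07, adjusted p = 0.0192) with A217 at 24 h just inside the 0 h range. The loader subunits Rfc3 and Rfc4 were called. Rfc3 measured 51.8, 47.4, 47.6, 46.7 and 47.6 CPM at 0 h, 46.2, 36.4, 43.2, 41.8 and 41.8 at 4 h, and 46.3, 36.01, 37.4, 39.02 and 37.5 at 24 h. Rfc4 measured 41.8, 38.4, 36.8, 37.4 and 36.9 CPM at 0 h, 38.4, 31.3, 37.1, 35.6 and 38.2 at 4 h, and 34.1, 27.6, 30.4, 27.6 and 27.6 at 24 h. For both genes the 24 h libraries lay below every 0 h library, while the 4 h values overlapped those at 24 h; Rfc3 fell by 0.30 (SE 0.08, adjusted p = 0.0207) and Rfc4 fell by 0.39 (SE 0.07, adjusted p = 0.00366). Rfc2 and Rfc5 were not called, at -0.14 (SE 0.05, adjusted p = 0.0852) and -0.17 (SE 0.07, adjusted p = 0.0946), but were with the block, at -0.14 (adjusted p = 0.00766) and -0.18 (adjusted p = 0.00406). Rfc5 measured 157, 145, 148, 148 and 146 CPM at 0 h, 151, 128, 157, 150.5 and 151 at 4 h, and 152, 118, 133, 128 and 129.7 at 24 h. Pcna, the sliding clamp, had the highest level of the 45 at a mean of 419 TPM. Pcna measured 430.2, 374, 402, 392 and 376 CPM at 0 h, 412, 349.6, 403, 368 and 406 at 4 h, and 411, 329, 384, 364 and 346 at 24 h. Its change was -0.11 (SE 0.07, adjusted p = 0.31), and -0.11 (adjusted p = 0.0253) with the replicate block.

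All 4 genes of nucleotide supply were called lower, with a median of -0.26. Rrm1 and Rrm2 are the subunits of ribonucleotide reductase, of which RRM2 is the one tied to S phase. Rrm2 measured 274, 288, 305, 291 and 329 CPM at 0 h, 251, 246, 279.7, 244 and 285 at 4 h, and 256, 209, 246, 214 and 232 at 24 h. Rrm1 measured 385, 356, 361, 391 and 371 CPM at 0 h, 385, 322, 374, 362 and 367 at 4 h, and 375, 283, 316, 308 and 294 at 24 h. Rrm2 fell by 0.38 (SE 0.07, adjusted p = 0.00358) with no overlap, and Rrm1 fell by 0.26 (SE 0.07, adjusted p = 0.0261) with the A217 library inside the 0 h range. Tk1, thymidine kinase, and Tyms, thymidylate synthase, are the salvage and the synthesis route to thymidine nucleotides. Tk1 measured 112, 111, 101, 113 and 104 CPM at 0 h, 106, 92.4, 96.9, 108 and 107 at 4 h, and 107, 83.3, 80.6, 92.5 and 88.3 at 24 h. Tyms measured 124, 112, 119, 121 and 118 CPM at 0 h, 124, 104, 116, 114 and 117 at 4 h, and 118, 96.6, 100.1, 103 and 98.8 at 24 h. Tk1 fell by 0.26 (SE 0.07, adjusted p = 0.0269), and Tyms fell by 0.21 (SE 0.06, adjusted p = 0.0329). At 0 h, 51.6% of the Tyms counts were on transcripts annotated as noncoding, and with protein-coding transcripts alone Tyms was no longer called.

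Chromatin is copied with the DNA. Chaf1a and Chaf1b encode subunits of the assembly factor CAF-1, which places new histones behind the fork, and Uhrf1 brings the maintenance DNA methyltransferase to newly copied sites. Chaf1a measured 80.5, 79.1, 71.6, 79.8 and 78.98 CPM at 0 h, 68.7, 61.6, 66.1, 72.9 and 70.8 at 4 h, and 66.99, 56.9, 50.6, 58.5 and 55.8 at 24 h. Uhrf1 measured 242, 219.9, 219.6, 232 and 226 CPM at 0 h, 194, 171, 190.2, 195 and 202 at 4 h, and 214, 161, 152, 169 and 171 at 24 h. Neither gene's 24 h libraries overlapped those at 0 h. Chaf1a fell by 0.44 (SE 0.07, adjusted p = 0.00113) and Uhrf1 fell by 0.40 (SE 0.08, adjusted p = 0.00588). Chaf1b measured 82.1, 74.5, 74.5, 77.2 and 71.97 CPM at 0 h, 69.8, 58.1, 66.7, 68.7 and 63.8 at 4 h, and 76.5, 57.1, 61.7, 64.2 and 64.7 at 24 h. Chaf1b was at -0.23 (SE 0.08, adjusted p = 0.0555) and passed with the replicate block, at -0.23 (adjusted p = 0.000929).

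Among the fork checkpoint genes, Clspn (claspin) carries the signal from ATR to CHK1, and Timeless and Tipin form the complex that holds helicase and polymerase together. Clspn measured 73.2, 63.5, 65.5, 72.3 and 70.6 CPM at 0 h, 64.2, 56.1, 62.6, 58.9 and 63.2 at 4 h, and 66.1, 48.8, 50.8, 48.2 and 46.9 at 24 h. Clspn fell by 0.44 (SE 0.08, adjusted p = 0.00322), and the 2 negative lines had its lowest 24 h values. Timeless measured 60.3, 59.8, 50.6, 57.7 and 57.6 CPM at 0 h, 44.4, 40.1, 42.5, 43.99 and 47.3 at 4 h, and 53.6, 44.00, 36.6, 44.3 and 45.3 at 24 h. The 5 Timeless libraries at 4 h all lay below those at 0 h, and at 24 h the gene fell by 0.35 (SE 0.09, adjusted p = 0.0161). Tipin measured 79.96, 64.5, 72.4, 69.5 and 66.01 CPM at 0 h, 73.8, 57.1, 66.1, 57.1 and 73.96 at 4 h, and 67.6, 50.7, 63.8, 57.4 and 52.9 at 24 h. Tipin was at -0.27 (SE 0.10, adjusted p = 0.0774) and, with the replicate block, -0.28 (adjusted p = 0.00208).

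The genes that control entry into S phase were the least called, 1 of 4, although all 4 passed with the replicate block (median -0.23). Dtl (chr1:191537356-191575544), the receptor by which the CRL4 ubiquitin ligase destroys CDT1 in S phase, was the 1 called. Dtl measured 67.05, 57.9, 61.7, 67.2 and 64.7 CPM at 0 h, 56.6, 45.9, 47.5, 46.4 and 50.8 at 4 h, and 60.2, 50.6, 53.8, 47.7 and 54.97 at 24 h. Dtl fell by 0.27 (SE 0.07, adjusted p = 0.0237) at 24 h, with its lowest level in every line at 4 h. E2f1, a transcription factor of the pathway, had -0.18 (SE 0.09, adjusted p = 0.18) from a mean level of 7.96 TPM, the lowest of the 45 after Ticrr at 5.27 TPM. Its 0 h libraries ran from 13.8 to 16.7 CPM and its 24 h libraries from 11.8 to 15.02. Cyclin E1 (Ccne1) was at -0.20 (SE 0.07, adjusted p = 0.0537) and cyclin E2 (Ccne2) at -0.25 (SE 0.12, adjusted p = 0.161). With the replicate block the values were -0.18 (adjusted p = 0.0227) for E2f1, -0.20 (adjusted p = 0.00519) for Ccne1 and -0.25 (adjusted p = 0.00675) for Ccne2.

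Of the 32 genes called at 24 h in the average, 17 kept their call under each of the 18 alternatives run: Mcm4, Mcm6, Mcm7, Orc1, Cdc6, Cdc7, Cdc45, Gins3, Mcm10, Ticrr, Pola2, Fen1, Rfc4, Rrm2, Uhrf1, Chaf1a and Clspn. The calls went from 32 to 18 without the 0 h library of A218 and to 19 without its 24 h library. No estimate of any of the 45 genes lay above 0 in the 855 combinations of gene and setting. The summed level of the duct markers was 10520 to 13080 TPM at 0 h, 9829 to 12180 at 4 h and 13750 to 16360 at 24 h. It was lower at 4 h than at 0 h in all 5 lines, the direction of the replication genes. In A217 it was nearly level, at 10510 TPM against 10520. At 24 h it was higher than at 0 h in all 5 lines, the opposite direction. The part of this in the fall of the replication genes was not tested.

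At 4 h the fall was smaller and held fewer genes. In the average over genotypes edgeR called 1 gene, Dtl, against 0.383% of all features called lower, and the replicate block called 15, against 4.92%. The median change at 4 h was -0.12 and the median of all features 0.00. Dtl fell by 0.38 (SE 0.07, adjusted p = 0.0336) at 4 h, and among the fits that each leave out 1 library it kept the call only without the 0 h library of A220 or the 4 h library of A217. Those called by the block were Mcm7, Orc1, Cdc6 and Cdt1 among the licensing genes, Ticrr and Mcm10 among the firing genes, Fen1 and Rfc3, Rrm2, all 3 chromatin genes, Clspn and Timeless, and Dtl. None of the 6 genes of polymerases and primase was among them, which is near the 4.92% of all features. The smallest adjusted p of the block fit in that role was 0.0629. The lowest values of the block fit at 4 h were those of Dtl at -0.38 (adjusted p = 6.7e-05), Timeless at -0.38 (adjusted p = 0.00142), Orc1 at -0.36 (adjusted p = 0.000985) and Cdt1 at -0.35 (adjusted p = 0.000922). Of the 45 genes, 25 were lower at 4 h in all 5 lines, against 10.8% of all features.

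The step from 4 h to 24 h was compared directly, a comparison added after the data were seen. The test called 10 of 45 genes lower at 24 h than at 4 h, against 8.24% of all features, with a median of -0.18. With the replicate block 33 were called lower, against 15.9%. It called 1, Dtl, higher at 0.11 (adjusted p = 0.0498), against 3485 of all 16462 features called higher. The test without the block gave Dtl 0.11 (SE 0.07, adjusted p = 0.342). By the block fit the genes fell into several courses. Of the 15 called at 4 h, 10 were called lower again from 4 h to 24 h, among them Ticrr, Mcm10, Cdc6 and Orc1. The other 5, Cdt1, Rfc3, Chaf1b, Timeless and Dtl, were not called lower from 4 h to 24 h. A further 23 were not called at 4 h but were called lower from 4 h to 24 h: Cdc7 stood at -0.69 (adjusted p = 1.2e-06), Cdc45 at -0.44 (adjusted p = 2.1e-05), Prim1 at -0.38 (adjusted p = 9.9e-06), Gins3 at -0.37 (adjusted p = 0.000694) and Rfc4 at -0.32 (adjusted p = 0.000112). Passing at 1 step and not at another does not show that the steps differ for a gene. The count of 10 went to 31 without the 24 h library of A217 and to 17 without the 4 h library of A220. It was 6 without the 24 h library of A220 or A225 or the 4 h library of A217 or A225, 4 without the 24 h library of A218 or A223, and 3 without the 4 h library of A223. The share of all features called in these fits is not given, so the moves of the count are not read as particular to the 45 genes. In A217 the median from 4 h to 24 h was 0.00, with 21 of 45 genes lower, against medians of -0.27 to -0.15 in the other lines.

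**Figure D4:**
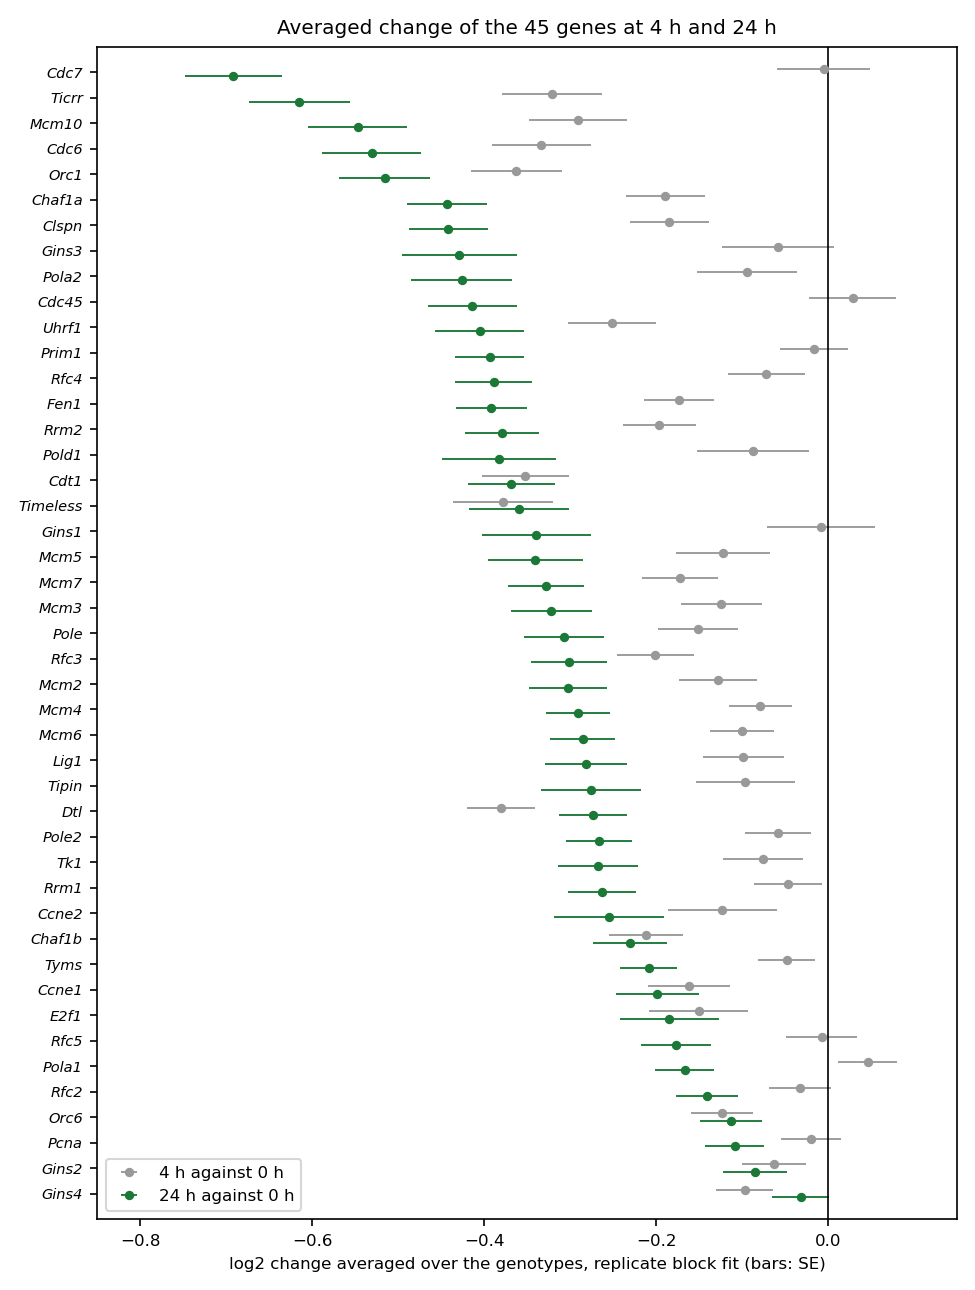
Log2 change of each of the 45 genes at 4 h (grey) and at 24 h (green), both against 0 h and averaged over the genotypes, from the fit with the replicate block; bars are standard errors. Cdc7, Cdc45 and Prim1 sit near 0 at 4 h and at -0.69, -0.41 and -0.39 at 24 h, while Cdt1, Timeless and Chaf1b have nearly the same value at both times.

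Both genotypes showed the fall at 24 h. In the inducible lines alone 6 genes were called lower, Chaf1a, Cdc6, Rfc4, Orc1, Cdc7 and Gins3, against 1.49% of all features, and 40 with the replicate block, against 10.2%. In the negative lines alone 8 were called, Chaf1a, Rrm2, Mcm6, Mcm10, Orc1, Cdc7, Clspn and Ticrr, against 1.06%, and 38 with the block, against 8.83%. Chaf1a, Orc1 and Cdc7 were called in both. The median change was -0.29 in the inducible and -0.34 in the negative lines. Without the 24 h library of A217 the inducible count went from 6 to 33, and without any 1 other inducible library of the 2 times it was 1 or 2. Without the 24 h library of A218 the negative count went to 1, and without the 0 h library of A218 or either library of A223 to 0, in fits that leave a lone negative library at that time and assume that it varies like the other groups. No share of all features called stands beside these counts with a library left out, so their moves are not read as particular to the replication genes. Cdc7 fell by 0.63 (SE 0.11, adjusted p = 0.00768) in the inducible lines. In the negative lines it fell by 0.75 (SE 0.13, adjusted p = 0.0103).

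The difference between the genotypes was tested directly. At 24 h no gene of the 45 had a change that differed between inducible and negative lines by edgeR's quasi-likelihood test, against 0.0121% of all features called, and 0 had an unadjusted p below 0.05, against 2.51% of all features. DESeq2 and limma-voom called 0 as well. The replicate block called 0, with 4 of 45 genes at an unadjusted p below 0.05, a share near the 8.04% of all features. The inducible minus the negative change had a median of 0.03 and ran from -0.16 for Gins2 to 0.30 for Clspn, with a median half-width of the 95% interval of 0.35. For Clspn the difference was 0.30 with a 95% interval of -0.06 to 0.66, and with the block 0.29 (0.07 to 0.52, adjusted p = 0.547). With the block the median of the difference was 0.02 and the median half-width 0.23. Set beside the median changes of -0.34 in the negative and -0.29 in the inducible lines, a difference of that size lies within a typical interval of the test without the block and outside a typical interval with it. Without the 24 h library of A217 the median of the difference was -0.08. Over the 18 alternatives run it ranged from -0.08 to 0.12.

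**Figure D5:**
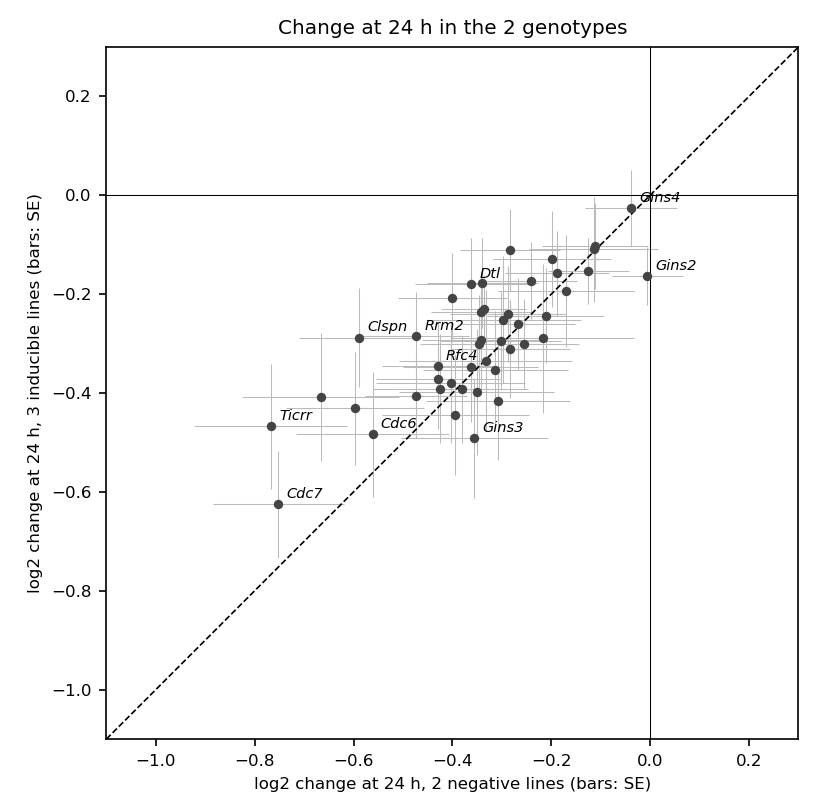
Log2 change from 0 h to 24 h of each of the 45 genes in the 2 negative lines (x axis) and the 3 inducible lines (y axis), with standard errors; the dashed line marks equal change. The points lie along the dashed line, and Clspn and Ticrr, each 0.30 above it, are among the farthest from it.

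At 4 h within 1 genotype edgeR called 0 of 45 genes in the inducible lines, against 0.0729% of all features called lower, and 12 had an unadjusted p below 0.05, against 7.6% of all features. DESeq2 called 2 (0.224% of all features called lower), limma-voom 3 (0.844%) and the replicate block 8 (1.72%). In the negative lines edgeR called 0, against 0.0243%, and 5 had an unadjusted p below 0.05, against 6.31%. There DESeq2 called 1 (0.18%), limma-voom 2 (0.522%) and the block 3 (1.24%). The median was -0.14 in the inducible and -0.07 in the negative lines. The difference between genotypes at 4 h was called in 0 genes by edgeR, against 0.0121% of all features called, with 0 at an unadjusted p below 0.05 (1.43% of all features), and in 0 by DESeq2 and by limma-voom. The block fit called 0 and had 1 of 45 below 0.05 unadjusted, against 4.55% of all features. Before doxycycline the genotypes were not told apart in these genes: at 0 h edgeR called 0 of 45, against 0% of all features, with 0 at an unadjusted p below 0.05 (3.58% of all features), and DESeq2 and limma-voom called 0. The inducible minus the negative level at 0 h ran from -0.17 to 0.11, with a median half-width of the 95% interval of 0.25.

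Other genes of the pathway were read from a second list of 59 replication and S phase genes. At 24 h the average test called 31 lower and none higher, against 7.83% of all features called lower, with a median of -0.24. The replicate block called 46 lower, against 15.4% of all features. It called 3 of the 59 higher, against 3406 of all 16462 features. The leading falls were Cdca7 -0.65 (adjusted p = 0.00367), a MYC and E2F target that recruits the chromatin remodeller HELLS, Recql4 -0.64 (adjusted p = 0.00657), a helicase of origin firing, Dna2 -0.60 (adjusted p = 0.0012), the nuclease that trims long flaps, and E2f7 -0.50 (adjusted p = 0.00307), a repressor of the E2F family. These were followed by Chek1 -0.46 (adjusted p = 0.0186), the checkpoint kinase, Exo1 -0.45 (adjusted p = 0.0078), a repair nuclease, and Fbxo5 -0.45 (adjusted p = 0.0113), an inhibitor of the anaphase-promoting complex. The others called included Chtf18, Rpa2, E2f2, Atad5, Hells, Cdk2, Pold2, Donson, Topbp1, Cdc25a, Ccna2, Brca1, Asf1b, Mms22l, Gmnn, Rbl1, Dnmt1, Pold3, Rpa3, Mcm8, Tfdp1, Mcmbp and Pole3, between -0.40 and -0.19. The genes called higher by the block alone, named after their values were seen, were Pold4, the smallest subunit of polymerase δ, at 0.26, Rrm2b, the form of the reductase subunit induced by p53, at 0.21, and Orc4 at 0.18. At 4 h the list had 1 call, against 0.383% of all features called lower. It was Cdc25a, the phosphatase that activates CDK2, at -0.26 (adjusted p = 0.0468). With the replicate block 9 were called lower at 4 h, against 4.92% of all features, and 1 higher, against 617 of all 16462 features. Among the 9, named after their values were seen, were Cdca7 at -0.47 (adjusted p = 0.00136) and Exo1 at -0.21 (adjusted p = 0.00357). In the inducible lines alone Pold2, Dna2, Cdca7, Asf1b and Tfdp1 were called lower at 24 h, and those called in the negative lines alone included Dna2 and E2f7. With the block 37 were called lower in the inducible lines, against 10.2% of all features, and 40 in the negative lines, against 8.83%.

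A list of 20 mitosis genes was set beside them. At 24 h 15 of 20 were called lower, against 7.83% of all features, and 20 with the replicate block, against 15.4%. The median was -0.23. The called genes were led by Aurkb -0.38 (adjusted p = 0.00273), the kinase that corrects chromosome attachment, and Bub1b -0.36 (adjusted p = 0.00933), a spindle checkpoint protein. Top2a, Ttk, Kif11, Foxm1, Cenpe, Cenpa, Mki67, Birc5, Aurka, Plk1, Cdk1, Ccnb1 and Ube2c were the others. At 4 h edgeR called none of the 20, with 0 at an unadjusted p below 0.05, against 11.8% of all features. The replicate block called none, with 4 below 0.05 (22.4% of all features), and DESeq2 and limma-voom called 0. The median at 4 h was -0.02, against -0.12 for the 45 replication genes. This difference between the lists was not tested. By line the mitosis median at 4 h was -0.04 in A217, -0.13 in A220, 0.04 in A225, -0.08 in A218 and 0.07 in A223. That of the replication genes was -0.14, -0.21, -0.09, -0.13 and -0.04 in the same order.

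The counts of a gene are spread over its annotated transcripts. In 41 of the 45 genes, under 13% of the counts at 0 h fell on transcripts annotated as noncoding, and the others were Rfc2 at 70.3% ± 0.726 (SD, n = 5), Tyms at 51.6% ± 0.792, Gins2 at 21.8% ± 0.705 and Ticrr at 18.4% ± 3.55. In Rfc2 the transcript with the largest share, 40.3%, is annotated as a retained intron. The share of counts on transcripts with a retained intron could be followed in 26 of the 45 genes, those with at least 0.5% at 0 h. It was lower at 24 h in all 5 lines in 8 of the 26 (30.8%), against 25.7% of the 6220 features with such a share, which is near the background. The median share of the 26 genes was 2.72% at 0 h and 2.545% at 24 h, against 4.46% and 3.53% over the 6220 features. Prim1, Rfc5 and Dtl are examples out of the 8 and not typical of the 26. In Prim1 this share was 8.17% ± 0.774 at 0 h and 4.57% ± 0.63 at 24 h (SD, n = 5). In Rfc5 it was 5.3% ± 0.598 and 3.11% ± 0.746, and in Dtl 4.6% ± 0.437 and 2.94% ± 0.694. Rfc4 went the other way in every line, from 1.44% ± 1.09 to 2.49% ± 0.953. It was the 1 gene of the 26 that was higher in all 5 lines, against 52 of the 6220 features.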

How the data were processed

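Total RNA of 15 organoid libraries was depleted of ribosomal RNA and sequenced in pairs, per the labels' protocols. The submitters' processing notes list kallisto 0.43.1, GRCm38, DESeq2 1.18.1 and DESeq. The deposited files give estimated counts per transcript, not normalised, and TPM, per the file headers. No label gives the strand setting, so a gene and an antisense partner cannot be told apart.

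Estimated counts were summed per gene with GENCODE M21, which may not be the authors' release, and rounded. The 1295 identifiers without a match, 0.556 to 0.593% of a library's counts, were left out. Deposited TPM values were summed per gene for levels only. Depth of 47915632 to 59411540 estimated counts put the lowest count of a replication gene at 374.

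The main test was edgeR 4.0.16 (R 4.3.3), the quasi-likelihood F test with TMM scaling (factors 0.966 to 1.02), edgeR's expression filter and 6 group means over all 15 libraries (biological coefficient of variation 0.157, 9 residual degrees of freedom). Within each of 10 comparisons the Benjamini-Hochberg adjustment ran over 16462 features, with calls below 0.05. The replicate block adds the line as a term (0.0577, with 6 degrees of freedom). Samples of a group are separate lines, and a p-value of the main test reflects only how much these lines vary. A p-value of the block fit reflects only how much the changes within lines vary. The line name pairs the times: deviations from the group means correlated between libraries of the same inducible line at 0.381 to 0.476 in 9 pairs, and in the negative lines at 0.238 to 0.285. Alternatives were DESeq2 1.42.0, limma-voom (limma 3.58.1) with a random effect of line (estimated correlation 0.417), median-of-ratios scaling, no filter, a filter of 1 CPM in 3 libraries, only the groups compared, protein-coding transcripts only, and each library left out. Scripts were tested on simulated data.

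The 45 genes, the other lists and the tests were chosen with earlier results of these data known. All 45 are described by role, with values in every library for those called by the main test or by the block in both genotypes, and second-list genes are named where called, except for 1 result that is not reported here. Promoters are from RefSeq for GRCm38.p6.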

Additional observations from a re-analysis of the deposited data

How the results depend on the processing

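The direction of the 24 h fall held under each alternative run, and the number of genes passing the threshold did not. The median change at 24 h averaged over genotypes ranged from -0.377 to -0.273 over 18 alternatives, and that at 4 h from -0.145 to -0.079. With the replicate block, which pairs the times within a line, the count of replication genes called went from 6 to 40 in the inducible lines at 24 h, from 8 to 38 in the negative lines at 24 h, from 0 to 8 and from 0 to 3 at 4 h, from 1 to 15 at 4 h in the average, and from 10 to 34 from 4 h to 24 h. With limma-voom and the line as a random block these counts were 36, 33, 3, 2, 12 and 30, and with DESeq2 they were 26, 19, 2, 1, 6 and 17. Fitting only the groups compared gave 0 in the inducible and 36 in the negative lines at 24 h, 5 at 4 h in the average and 6 from 4 h to 24 h. Without the expression filter 11 were called in the inducible lines at 24 h and 2 at 4 h in the average, and with at least 1 CPM in 3 libraries 12 in the inducible lines at 24 h and 17 from 4 h to 24 h. The share of all features called lower also rose with the block at 24 h. It went from 1.49% to 10.2% in the inducible lines and from 1.06% to 8.83% in the negative lines. For most other alternatives no such share stands here. The moves are therefore not read as particular to the replication genes. The cause of these moves was not tested.

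Leaving out 1 library gave 18 to 38 calls at 24 h in the average, 1 to 33 in the inducible and 0 to 1 in the negative lines at 24 h, 0 to 1 at 4 h in the average and 3 to 31 from 4 h to 24 h. Leaving out all 3 libraries of a line from the block fit, an alternative chosen after seeing the data, gave 40 to 43 calls at 24 h. The comparison of genotypes at 0 h cannot take the block, since each line has 1 genotype. The comparison of genotypes rests on 5 lines, 2 of them negative; neither the number of lines nor the depth was varied for it beyond leaving out libraries.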
